A study of Mus musculus with 4 samples.

Results

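The mitosis genes described here are 40 genes that carry mammalian cells into, through and out of mitosis. They were chosen by name for their known function, with earlier results of these data known, as the rows of the deposited gene table with these symbols: 6 cyclins, Cdk1 and phosphatases, 4 mitotic kinases, 5 spindle checkpoint genes, 3 chromosomal passenger subunits, 5 centromere and kinetochore genes, 5 kinesins and spindle assembly genes, 6 cytokinesis genes, 4 genes of anaphase onset, the transcription factor Foxm1 and the topoisomerase Top2a. All 40 were found among the 23756 genes of the table, and all 40 passed the filter on low counts that kept 16535 genes.

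RNA was sequenced from 32Dcl3-Abl1ko cells, a mouse hematopoietic line that needs interleukin-3 (IL-3) to grow and in which Abl1, the gene of the ABL1 tyrosine kinase, was edited with CRISPR/Cas9. The group Abl1ko/IL3+ was cultured with IL-3 and the group Abl1ko/IL3- grew without it, with 2 libraries each. All 4 libraries thus share the Abl1 knockout, and libraries from cells with Abl1 intact were not analysed here. The knockout cells were grown out from single clones, and the sources used here do not tie the clones to the libraries, so a difference between clones and a difference between replicates cannot be told apart. The comparison asks how gene expression differs once Abl1-deleted cells grow independently of IL-3. Library totals ran from 48953174 to 60382588 counts. At these totals, 3 counts correspond to 0.0497 to 0.0613 CPM (counts scaled to a common library total), a floor that covers counting error only, and the lowest count of any mitosis gene was 94. The labels call the cells pre-B-cell. Of 11 pre-B markers 7 were in the table, Rag1 had 0 counts in 3 of 4 libraries and Vpreb2 in 3 of 4, and Cd79b, the highest in sum, had 607 to 1044 counts. Of 12 myeloid progenitor markers, the peroxidase Mpo had 28978 to 121109 counts and Ms4a3 24156 to 33168, while Elane had 130 to 304, Cd34 14 to 30, Csf3r 0 to 45 and Kit 0 to 4. The cells are therefore called here by the name of the line. Abl1 itself had 1322 and 2222 counts under IL-3 and 1544 and 2256 in its absence, which gives the level of its RNA and not of its protein.

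Cells enter mitosis when Cdk1 bound to B-type cyclins is switched on by Cdc25 phosphatases, helped by Aurora and Polo kinases. Spindle microtubules then attach to kinetochores, and the checkpoint proteins hold the anaphase-promoting complex in check until every chromosome is attached. Its activator Cdc20 thereafter triggers destruction of securin and cyclin B, separase cuts cohesin, and the central spindle directs cytokinesis. Most of these genes are transcribed mainly in G2 and M phase, so that in growing blood cells their RNA is read as a mark of dividing cells. That timing rests on the NF-Y box, whose letters are CCAAT, and on the cell cycle genes homology region (CHR), whose letters are TTTGAA or TTTAAA. The CHR is bound by the DREAM complex in resting cells and by the B-Myb and Foxm1 complex in dividing cells.

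These letters were more frequent in promoters of the mitosis genes than in promoters of all genes tested. RefSeq promoter windows on GRCm38.p6, each holding 250 bases before and 50 after a transcription start, were available for 33 of the 40 genes (36 windows, since a gene may have several starts that share sequence). On either strand CCAAT was in 28 of 36 windows (77.8%), against 37.7% of the 13068 windows of tested genes and 37.4% of all 32851 windows. At least 2 such boxes were in 50% of windows of the mitosis genes and in 13.9% of those of tested genes. TTTGAA was in 75% against 12.5% of windows of tested genes and 17.9% of all windows, and TTTAAA was in 25% against 9.2% and 13.2%. Either CHR form occurred in 30 of 36 windows (83.3%, against 19.9% for tested genes and 27.6% for all), and CCAAT together with either form in 69.4%, against 7.86% and 10.7%. Among 117 windows of other mitosis genes, the lists of which are given further on, CCAAT was in 57.3%, TTTGAA in 35.9%, either CHR form in 40.2% and CCAAT together with either form in 29.1%. Each motif was counted on its own, so letters shared by overlapping motifs count for both. Mean GC content of the windows was 59.1% for the mitosis genes and 59.9% for tested genes. The matches describe letters and are not evidence of a bound factor, and some of these genes were among those from which the motifs became known.

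The 120 bases before the start are printed for 6 genes that the results turn on, taken in order of mean level from the named genes that had an entry, because they show how the boxes sit close to the start. Sequences are from RefSeq, on GRCm38.p6, and read 5′ to 3′ in the direction of transcription. Capitals mark the NF-Y box (CCAAT or, on the other strand, ATTGG) and both CHR forms, the first as TTTGAA or as TTCAAA on the other strand and the second as TTTAAA, which reads alike on both strands.
Cdc20, chr4:118437344-118437463, minus strand: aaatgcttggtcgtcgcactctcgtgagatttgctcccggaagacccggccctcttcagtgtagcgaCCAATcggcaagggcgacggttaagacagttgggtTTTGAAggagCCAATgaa
Top2a, chr11:99024190-99024309, minus strand: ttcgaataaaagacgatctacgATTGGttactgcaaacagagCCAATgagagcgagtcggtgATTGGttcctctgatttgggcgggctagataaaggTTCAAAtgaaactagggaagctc
Birc5, chr11:117849117-117849236, plus strand: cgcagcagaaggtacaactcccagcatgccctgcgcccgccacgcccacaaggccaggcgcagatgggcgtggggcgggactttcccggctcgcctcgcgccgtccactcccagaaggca
Plk1, chr7:122159315-122159434, plus strand: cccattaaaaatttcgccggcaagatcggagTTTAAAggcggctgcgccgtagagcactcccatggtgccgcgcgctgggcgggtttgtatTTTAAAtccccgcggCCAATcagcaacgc
Cdk1, chr10:69352913-69353032, minus strand: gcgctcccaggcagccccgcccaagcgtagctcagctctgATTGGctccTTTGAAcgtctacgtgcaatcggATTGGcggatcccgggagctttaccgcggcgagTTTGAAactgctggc
Aurka, chr2:172370571-172370690, minus strand: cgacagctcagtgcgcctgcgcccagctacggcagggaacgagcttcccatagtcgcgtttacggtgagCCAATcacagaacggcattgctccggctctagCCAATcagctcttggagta

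Cdc20, Top2a and Cdk1 each had a CCAAT box upstream of a TTTGAA close to the start. The first base of the nearest TTTGAA lay 18, 23 and 15 bases before the start of Cdc20, Top2a and Cdk1. Cdc20 had another CCAAT box after its TTTGAA, 8 bases before the start. Within the printed stretch, the CCAAT box farthest from the start lay 53 bases before it in Cdc20, 80 in Cdk1 and 98 in Top2a, and the windows of Cdk1 and Top2a held further boxes upstream. Plk1 carried TTTAAA, 89 and 29 bases before the start, and a CCAAT box at 14 bases. Its window also held a TTTGAA after the start, outside the printed stretch. Aurka had CCAAT at 51 and 19 bases and no CHR in the printed stretch, both CHR forms lying after its start. In Birc5, which encodes survivin, no capitals appear, and its whole window of 300 bases held neither CCAAT nor TTTGAA, but a TTTAAA 220 bases before the start. Kif20a, Tpx2, Incenp, Ccna2, Foxm1, Aurkb and Cdc25c had no entry.

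**Figure D1:**
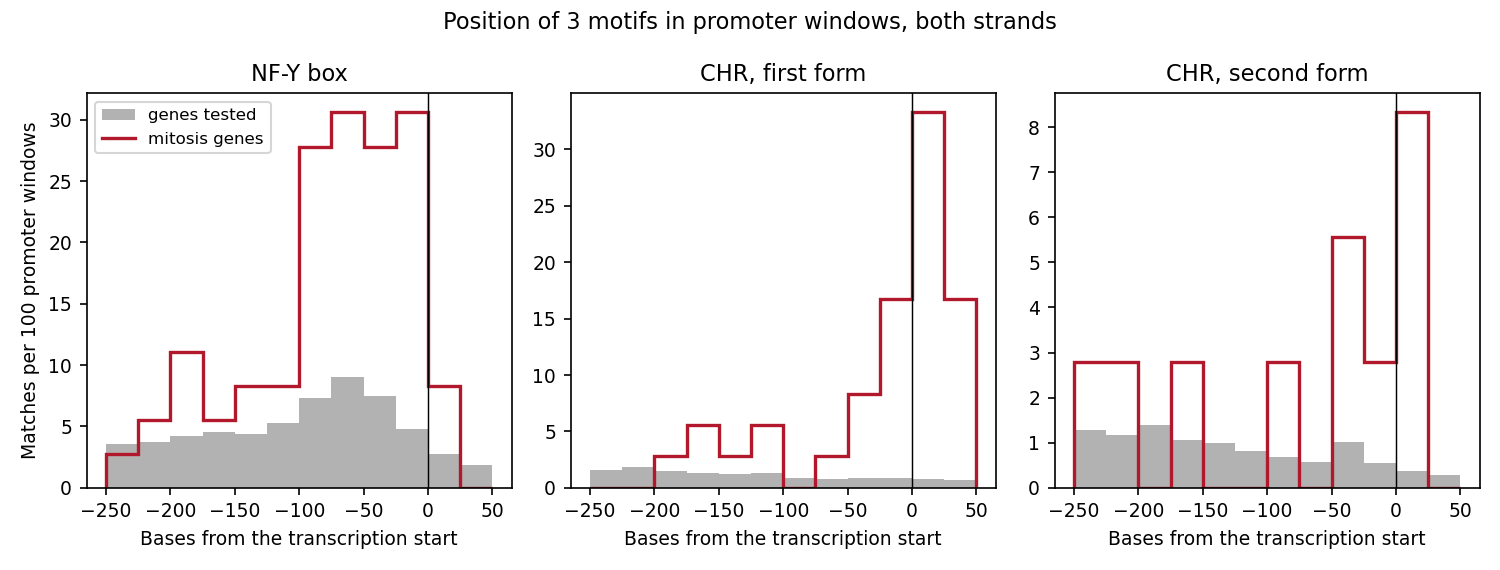
Matches per 100 promoter windows (y axis, scaled separately in each panel) by distance from the transcription start in bases (x axis, bins of 25 bases, both strands), for the 36 windows of the mitosis genes (red line) and the 13068 windows of tested genes (grey). The NF-Y box is CCAAT, the first CHR form TTTGAA and the second TTTAAA. In the mitosis genes the NF-Y box peaks between 100 and 0 bases before the start, at 27.8 to 30.6 matches per 100 windows in each bin. The first CHR form peaks in the 25 bases after the start at 33.3 matches, against 0.781 in tested genes.

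Between cells growing without IL-3 and cells kept with it, no mitosis gene passed the test. At an adjusted p under 0.05, 0 of 40 were called by the quasi-likelihood F test of edgeR, with p-values adjusted by Benjamini and Hochberg's method over 16535 genes, beside a background of 0% called among all genes. By DESeq2, 0 of 40 were called, beside a background of 1.64% (271 genes). At an unadjusted p under 0.05, 2 mitosis genes were lower without IL-3 in edgeR, Foxm1 and Kif20a, and 0 were higher. The share called in the same way was 3.36% of all genes lower and 2.56% higher, so that 2 of 40 is near the background. DESeq2 had 2 mitosis genes under the unadjusted threshold, beside 1369 of all 16535 genes. The fitted log2 ratio of Abl1ko/IL3- over Abl1ko/IL3+, given below as the log2 fold change, was below 0 for 28 of 40 genes, where 51.9% of all genes were below 0. Its median was -0.22 for the mitosis genes and -0.027 for all genes tested. The 95% interval of the change held 0 in 38 of 40 genes. Adjusted p-values of the 40 genes ran from 0.815 to 0.999. Nothing in the sources used here says whether the duplicates were separate cultures, so these p-values measure only the spread between these libraries. In bulk RNA, fewer dividing cells and less RNA of these genes per cell cannot be told apart.

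**Figure D2:**
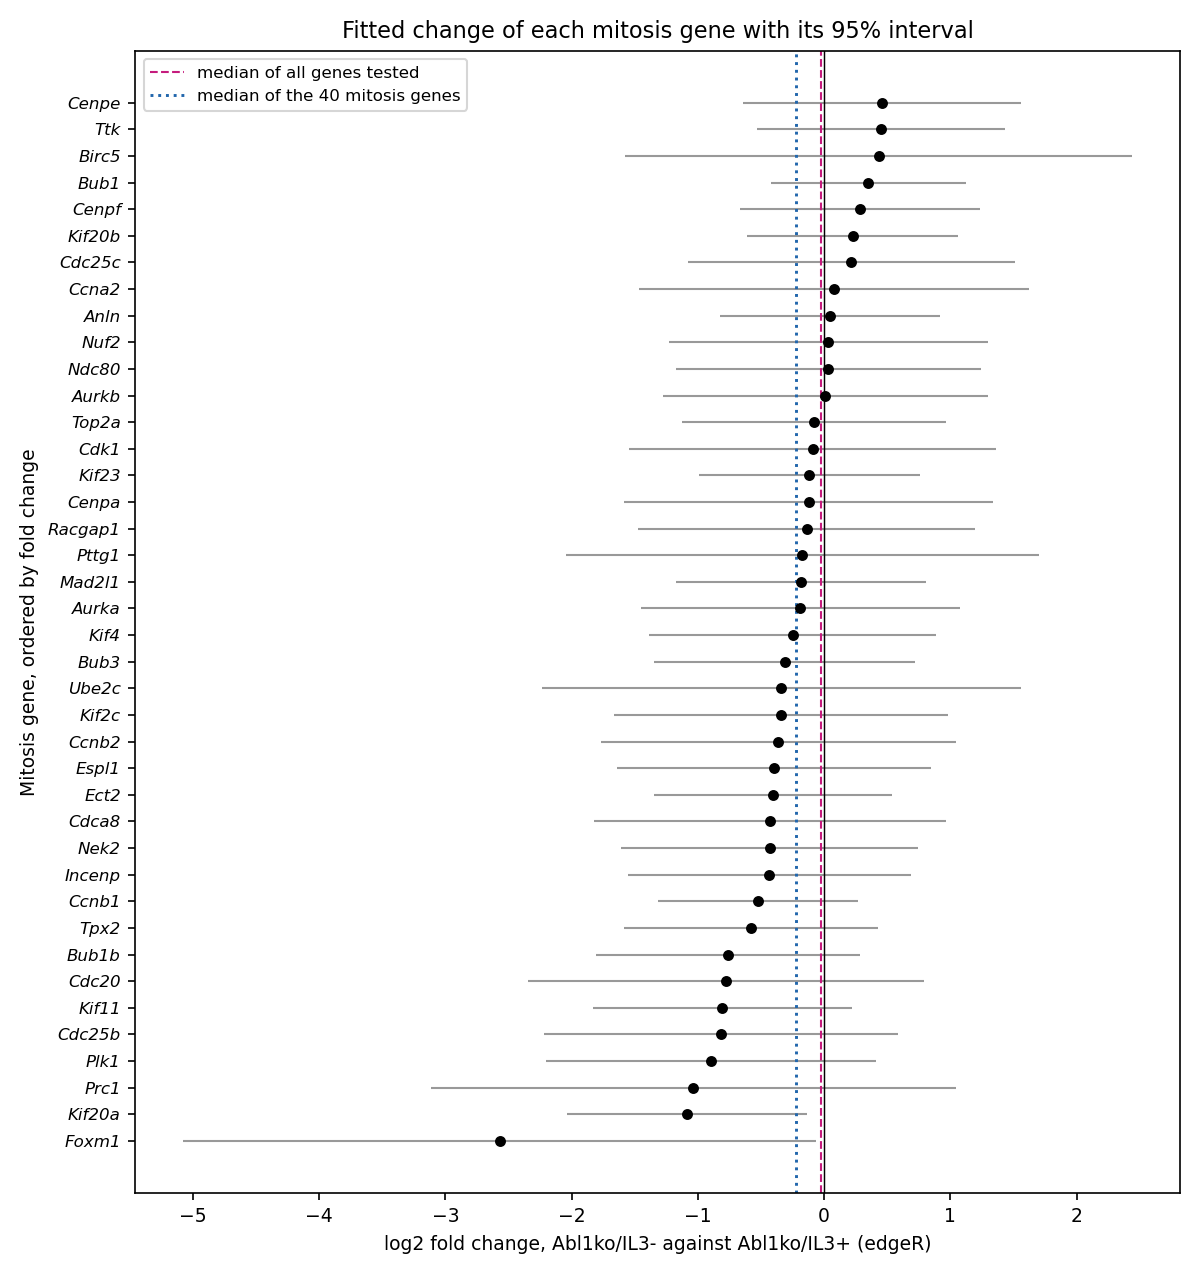
Fitted log2 fold change of each of the 40 mitosis genes, Abl1ko/IL3- against Abl1ko/IL3+ (x axis), with its 95% interval from edgeR (n = 2 libraries per group), ordered by size (y axis). The dashed line is the median of all genes tested (-0.027) and the dotted line that of the mitosis genes (-0.22). Only the intervals of Foxm1 and Kif20a lie wholly below 0, before adjustment.

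The 40 genes differed more between the duplicates with IL-3 than between the groups. Their summed level was 2345 CPM in Abl1ko/IL3+ 1 and 4982 CPM in Abl1ko/IL3+ 2, and 3373 and 2864 CPM in Abl1ko/IL3- 1 and 2 (CPM after TMM scaling, the scale of all CPM values of mitosis genes here). Both libraries without IL-3 thus lay inside the span of those with IL-3. As a share of all counts, the genes took 0.253% and 0.449% under IL-3 and 0.33% and 0.3% in its absence. Gene by gene, 37 of 40 were higher in Abl1ko/IL3+ 2 than in Abl1ko/IL3+ 1, all but Kif20b, Ect2 and Foxm1. Of all 16535 genes, 7973 were. The median ratio of these libraries was 1.93-fold for the mitosis genes and 0.977-fold over all genes tested. Irrespective of direction, the Abl1ko/IL3+ duplicates differed by a median of 2.02-fold (1.51-fold over all genes) and the Abl1ko/IL3- duplicates by 1.24-fold (1.24-fold over all genes). At least a 2-fold gap separated the duplicates with IL-3 in 20 of 40 genes (27.3% of all genes) and those without IL-3 in 1 gene, Prc1 (9.14% of all genes). In 35 of 40 genes the gap between the duplicates with IL-3 was larger than the fitted change between groups, as it was in 58.5% of all genes tested.

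**Figure D3:**
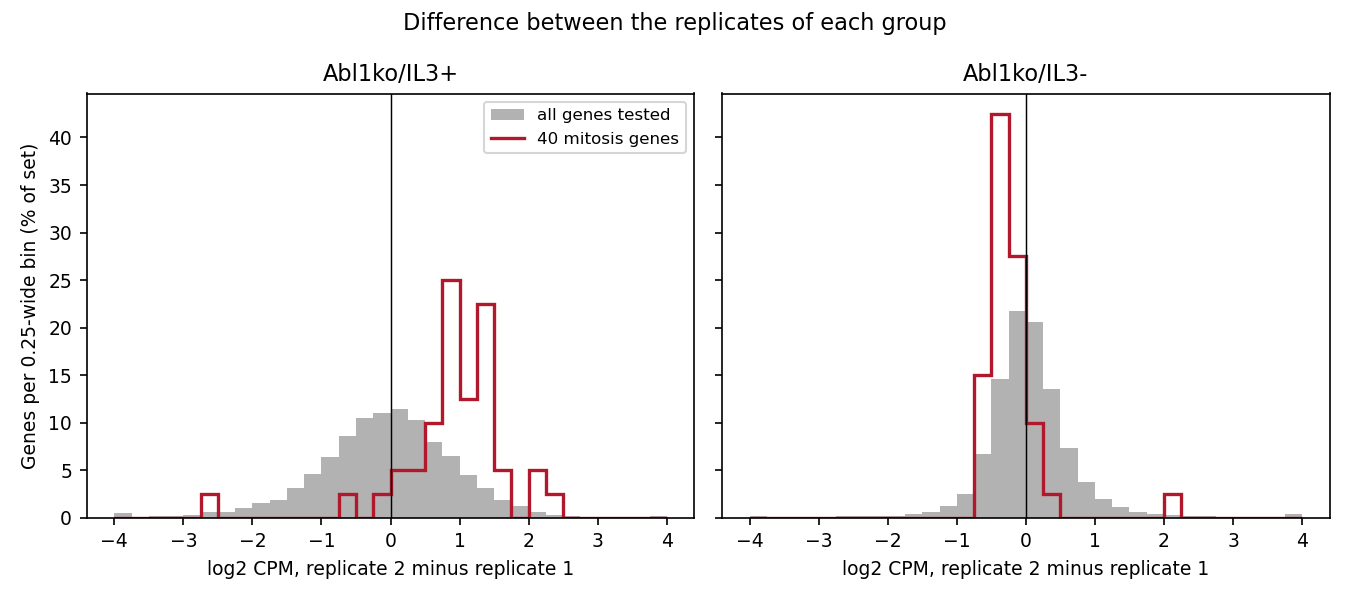
Difference between duplicates in log2 CPM, replicate 2 minus replicate 1 (x axis, bins of 0.25, with values beyond 4 in the end bins), as a percentage of the genes of each set (y axis). Grey bars are all genes tested and the red line the 40 mitosis genes, with IL-3 on the left and without it on the right. With IL-3 the mitosis genes sit to the right of 0 (median 0.94, against -0.033 for all genes), and without IL-3 they sit near 0, Prc1 alone lying above 2.

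Ranked within each gene, both libraries without IL-3 lay between those with IL-3 in 20 of 40 mitosis genes, beside 28.0% of all genes. The reverse, both libraries with IL-3 between those without it, was found in 0 of 40 and in 6.42% of all genes. Abl1ko/IL3+ 2 was the highest library in 31 of 40 (28.3% of all genes), and Abl1ko/IL3+ 1 the lowest in 26 of 40 (30.9% of all genes). The single order Abl1ko/IL3+ 1, Abl1ko/IL3- 2, Abl1ko/IL3- 1, Abl1ko/IL3+ 2, from low to high, was shared by 19 of 40 genes and by 10.1% of all genes. These rankings were added after the values had been seen and carry no test, and genes of 1 library are not independent. The groups did not overlap in 9 of 40 genes. Lower in both libraries without IL-3 were 8 genes, Ccnb1, Plk1, Bub1b, Kif11, Tpx2, Kif20a, Ect2 and Foxm1, beside 17.9% of all genes. Higher in both was Bub1 alone, beside 19.4% of all genes. The shares of 20% lower and 2.5% higher among the mitosis genes compare with those backgrounds, the first near it and the second below it. With CPM scaled by library total alone, the order was shared by 14 of 40 genes, and 7 genes were lower and 4 higher (Bub1, Ttk, Cenpe and Cenpf). Shares over all genes were not counted on that scale, so these counts have no background beside them.

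**Figure D4:**
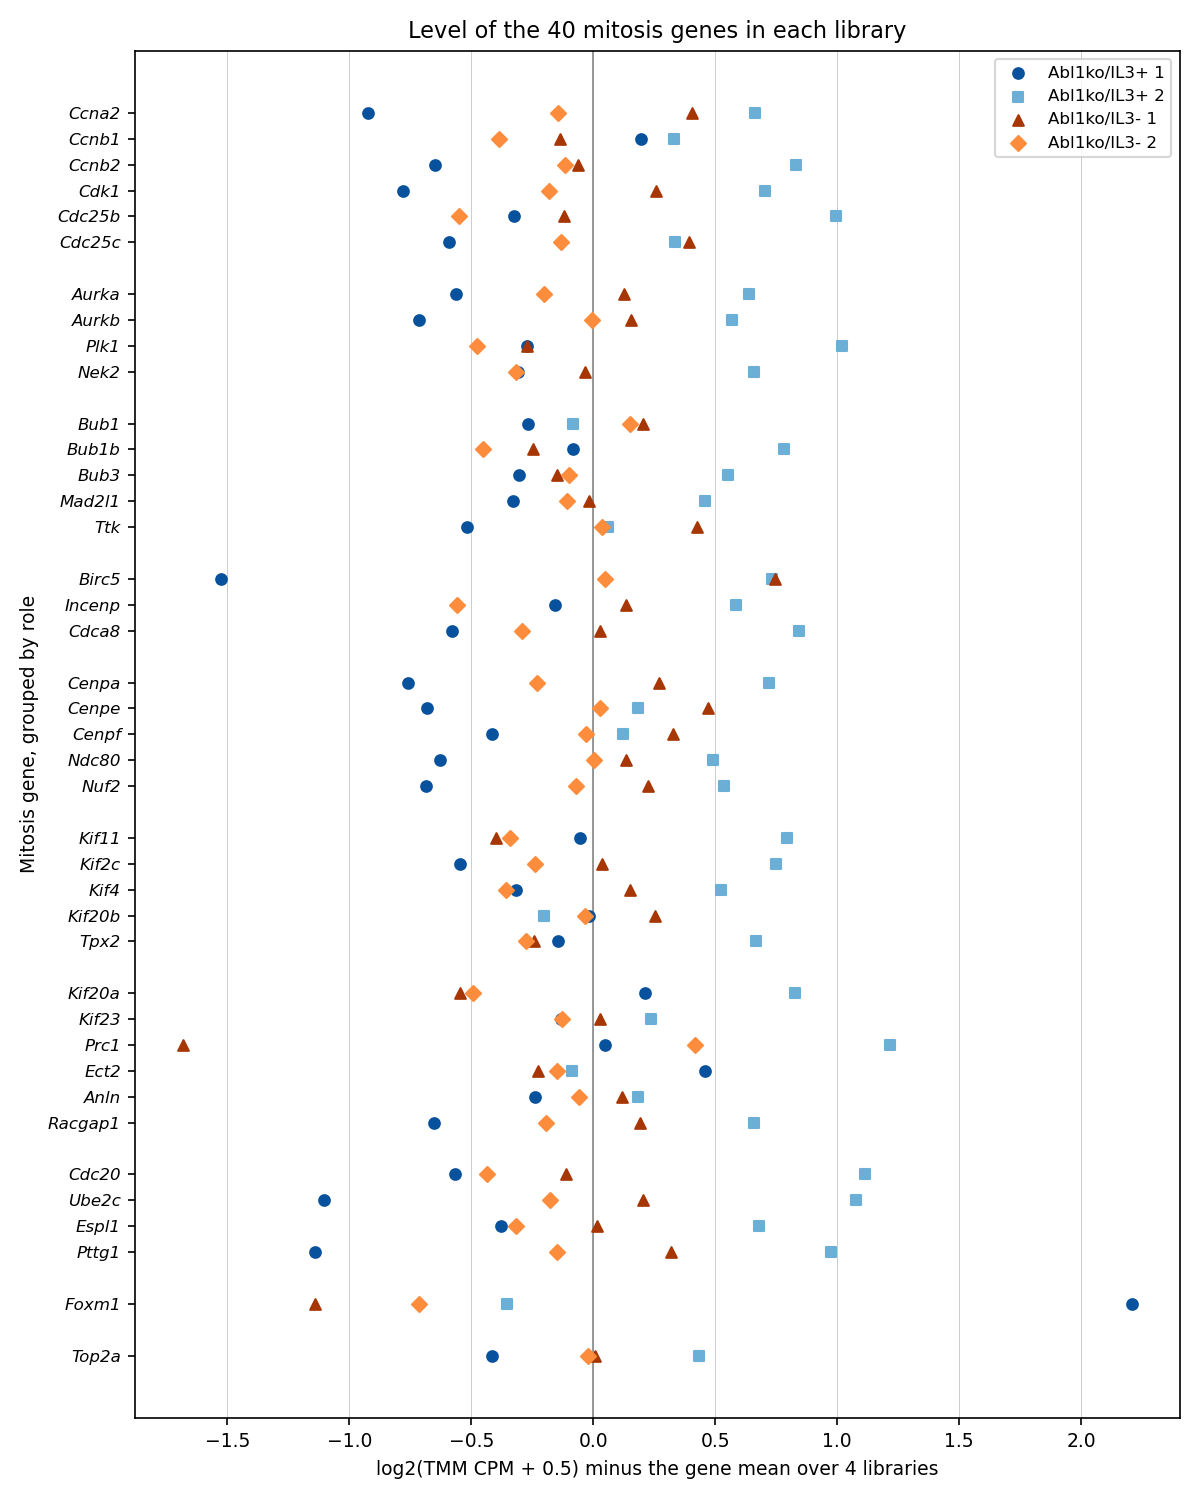
Level of each of the 40 mitosis genes in each library, as log2(CPM + 0.5) minus the gene's mean over the 4 libraries (x axis), grouped by role (y axis). Blue marks are the libraries with IL-3 and orange or brown marks those without it. Abl1ko/IL3+ 2 is the rightmost mark in 31 genes and Abl1ko/IL3+ 1 the leftmost in 26, and Foxm1, Birc5 and Prc1 hold the marks farthest from the mean.

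Markers of other cell types also differed between the libraries. The summed level of 7 erythroid markers, of which 6 passed the filter, was 400 CPM in Abl1ko/IL3+ 1, 7420 CPM in Abl1ko/IL3+ 2, and 3617 and 1826 CPM in Abl1ko/IL3- 1 and 2. Of the 6 tested, 3 held the order given above, and most of the sum in Abl1ko/IL3+ 2 came from the alpha globin gene Hba-a1, which had 7559 and 366735 counts under IL-3 and 158709 and 91439 in its absence. The erythroid transcription factor Gata1 had 13854 and 19892 counts under IL-3 and 8062 and 8745 in its absence, so that both of the latter were lower. The heme enzyme gene Alas2 had 0 to 11 counts. Mitochondrial genes took 2.55% and 1.28% of counts under IL-3 and 4.01% and 3.31% in its absence. Mast cell and basophil markers (8, of which 7 passed) summed to 769 and 125 CPM with IL-3 and to 182 and 255 CPM without it. The sum was thus highest in Abl1ko/IL3+ 1, but 3 of the 7 were higher in Abl1ko/IL3+ 2 than in Abl1ko/IL3+ 1. Of these, Mcpt8 had 1225 and 2741 counts under IL-3 and 3386 and 1963 in its absence. Neutrophil markers (10, of which 9 passed) summed to 1193 and 443 CPM with IL-3 and to 1125 and 5834 CPM without it, with the collagenase Mmp8 at 0 counts in both libraries with IL-3. Most of that sum came from the granule gene Ngp. Marker by marker, 5 of 9 were higher in both libraries without IL-3, beside 19.4% of all genes. At an unadjusted p under 0.05 in edgeR 5 were higher, beside 2.56% of all genes, with 0 past the adjusted threshold. Their median log2 fold change was 4.23. Myeloid progenitor markers (12, of which 11 passed) summed to 3226 and 3028 CPM with IL-3 and to 2079 and 1672 CPM without it. Mpo, the highest of them in every library, had 121109 and 80294 counts under IL-3 and 43479 and 28978 in its absence. Marker by marker, 2 of 11 were lower in both libraries without IL-3 (18.2%), beside 17.9% of all genes. The fitted change was below 0 in 9 of 11, beside 51.9% of all genes. T cell markers (7, of which 4 passed) summed to 0.838 and 1.47 CPM with IL-3 and to 2.7 and 5.81 CPM without it. Of the 4, 3 were higher in both libraries without IL-3 (19.4% of all genes). At an unadjusted p under 0.05 in edgeR 2 were higher (2.56% of all genes), with 0 past the adjusted threshold. The part of these features in the levels of the mitosis genes was not tested.

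Among the genes that start mitosis, the A-type and B-type cyclins, Cdk1 and the Cdc25 phosphatases, 3 of 6 had both libraries without IL-3 inside the span with IL-3. The summed level of the 6 genes was 333 and 788 CPM with IL-3 and 549 and 425 CPM without it. Ccnb1, the cyclin that forms the active mitotic kinase with Cdk1, was lower in both libraries without IL-3. It had 85.8 and 94.3 CPM with IL-3 and 68.1 and 57.2 CPM without it, and its duplicates with IL-3 differed by just 1.1-fold, the smallest such gap of the 40 genes. Its log2 fold change was -0.52 (SE 0.31, n = 2 per group, adjusted p = 0.884 in edgeR). Ccnb2, which codes for the other B-type cyclin of mitosis, had 73.5 and 206 CPM with IL-3 and 110 and 106 CPM without it. Cdk1, the kinase itself, had 68.3 and 192 CPM with IL-3 and 141 and 104 CPM without it. Both libraries without IL-3 fell inside the span of those with it, and its log2 fold change was -0.09 (SE 0.56, adjusted p = 0.996 in edgeR), which turned to 0.077 with the replicate number as a block. Ccna2, the cyclin of S phase and early mitosis, followed the same order with 72.7, 220, 183 and 125 CPM in Abl1ko/IL3+ 1 and 2 and Abl1ko/IL3- 1 and 2. Cdc25b, a phosphatase that activates Cdk1 early, had 23.3 and 58.9 CPM with IL-3 and 27 and 19.8 CPM without it. Its log2 fold change was -0.81 (SE 0.54, adjusted p = 0.898 in edgeR) and 0.0056 without Abl1ko/IL3+ 2, the high library. Cdc25c, a related phosphatase, was the lowest of the group at 9.35 and 18.2 CPM with IL-3 and 19 and 13 CPM without it.

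Of the 4 mitotic kinases, all were highest in Abl1ko/IL3+ 2. Plk1, the Polo kinase that acts from entry to cytokinesis, had 54 and 133 CPM with IL-3 and 54 and 46.7 CPM without it. With more digits, Abl1ko/IL3+ 1 had 54.03 and Abl1ko/IL3- 1 54.01 CPM, so the groups were barely separated after TMM scaling. The levels of 3 libraries lay close together and the second library with IL-3 stood 2.45-fold above the first, and the log2 fold change was -0.89 (SE 0.51, adjusted p = 0.876 in edgeR), -0.10 without Abl1ko/IL3+ 2 and -1.39 without Abl1ko/IL3+ 1. Aurka, the spindle pole kinase, had 35.8 and 83 CPM with IL-3 and 58.1 and 46.2 CPM without it. Aurkb, the kinase of the chromosomal passenger complex, had 37.7 and 92.3 CPM with IL-3 and 69.1 and 61.8 CPM without it. In both Aurora genes the libraries without IL-3 fell inside the span of those with it, and the log2 fold changes were -0.19 (SE 0.49, adjusted p = 0.983 in edgeR) for Aurka and 0.01 (SE 0.50, adjusted p = 0.999 in edgeR) for Aurkb. Nek2, a centrosome kinase, had 21.9 and 43.2 CPM with IL-3 and 26.6 and 21.8 CPM without it.

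The checkpoint genes held both a gene lower in each library without IL-3, Bub1b, and a gene higher in each, Bub1. Bub1, a kinase at kinetochores, had 56.7 and 64.5 CPM with IL-3 and 78.8 and 75.9 CPM without it. The duplicates of each group lay close, 1.14-fold and 1.04-fold apart, and the log2 fold change was 0.35 (SE 0.30, adjusted p = 0.924 in edgeR). Bub1b, which codes for the checkpoint protein BubR1, had 74.4 and 136 CPM with IL-3 and 66.4 and 57.6 CPM without it. Ttk, the kinase Mps1 that starts checkpoint signalling, had 24.4 and 36.7 CPM with IL-3 and 47.4 and 36.1 CPM without it. After TMM scaling 1 library without IL-3 exceeded both with IL-3, with library totals alone both did, and the log2 fold change was 0.45 (SE 0.38, adjusted p = 0.924 in edgeR). Bub3, a partner of both Bub kinases, had 141 and 256 CPM with IL-3 and 157 and 163 CPM without it. Mad2l1, the Mad2 protein that inhibits Cdc20, had 88.1 and 152 CPM with IL-3 and 109 and 103 CPM without it, again inside that span.

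Among subunits of the chromosomal passenger complex, which corrects faulty attachments, Birc5 had the widest spread. Its levels were 47 and 227 CPM with IL-3 and 229 and 141 CPM without it. Abl1ko/IL3+ 1 stood far below the other 3 libraries, and the duplicates with IL-3 were 4.79-fold apart. The log2 fold change of Birc5 was 0.43 with a 95% interval from -1.58 to 2.44 (adjusted p = 0.975 in edgeR), and -0.28 without Abl1ko/IL3+ 1. Incenp, the scaffold of the complex, had 97.6 and 164 CPM with IL-3 and 120 and 73.7 CPM without it. Cdca8, which codes for borealin, had 68.2 and 183 CPM with IL-3 and 104 and 83.1 CPM without it.

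The 5 centromere and kinetochore genes had Abl1ko/IL3+ 1 as the lowest library in every case. Cenpa, the histone H3 variant of centromeres, had 66.2 and 185 CPM with IL-3 and 136 and 95.6 CPM without it. Ndc80 and Nuf2, partners in the complex that grips microtubules, both had the order held by 19 of the 40 genes. Ndc80 had 25 and 55 CPM with IL-3 and 42.9 and 39.1 CPM without it, and Nuf2 had 40.4 and 94.7 CPM with IL-3 and 76.3 and 62 CPM without it. Cenpe, a kinetochore motor, had the largest fitted rise of the 40 genes, with 32.6 and 59.7 CPM with IL-3 and 73 and 53.6 CPM without it. The groups overlapped after TMM scaling, and its log2 fold change was 0.46 (SE 0.43, adjusted p = 0.933 in edgeR). Cenpf, a large kinetochore protein that accumulates in G2, had 28.1 and 41 CPM with IL-3 and 47.4 and 36.9 CPM without it. Its log2 fold change was 0.29 (SE 0.37, adjusted p = 0.961 in edgeR).

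The kinesins and spindle assembly genes summed to 282 and 488 CPM with IL-3 and to 290 and 263 CPM without it, so that 3 libraries lay within a narrow span below the second library with IL-3. Kif11, the Eg5 motor that pushes spindle poles apart, had 83.2 and 150 CPM with IL-3 and 65.3 and 68.1 CPM without it. Tpx2, which activates Aurora A on the spindle, had 104 and 183 CPM with IL-3 and 97 and 94.9 CPM without it. Neither gene overlapped between groups, and the lower library with IL-3 stood closer to those without IL-3 than to its own duplicate in both. Kif2c, a microtubule depolymerase, had 29.3 and 72.6 CPM with IL-3 and 44.1 and 36.3 CPM without it. Kif4, a chromosome motor, had 27.6 and 49.8 CPM with IL-3 and 38.3 and 26.8 CPM without it. Kif20b, a kinesin of late division, went the other way between duplicates with IL-3, at 37.5 and 33 CPM, and had 45.4 and 37.1 CPM without it.

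Cytokinesis genes held 2 of the 3 largest fitted falls of the 40 genes, Kif20a and Prc1, of which neither passed the adjusted threshold. Kif20a, the kinesin that carries the passenger complex to the central spindle, had 40.5 and 62.3 CPM with IL-3 and 23.7 and 24.7 CPM without it. The groups were separated by more than the gap between duplicates without IL-3, which was 1.04-fold. Its log2 fold change was -1.09 (SE 0.37, unadjusted p = 0.032 and adjusted p = 0.815 in edgeR), a 2.12-fold lower level. Of the exon bases of Kif20a, 29.3% overlap Cdc23 on the other strand, and Cdc23 had 4980 and 4839 counts under IL-3 and 3272 and 4263 in its absence. Prc1, which bundles the central spindle, stood apart in a single library. It had 59.5 and 135 CPM with IL-3, 17.6 CPM in Abl1ko/IL3- 1 and 77 CPM in Abl1ko/IL3- 2, and the latter lay between the libraries with IL-3. Its log2 fold change of -1.04 (SE 0.81, adjusted p = 0.919 in edgeR) was -0.33 without Abl1ko/IL3- 1 and -2.45 without Abl1ko/IL3- 2. Rccd1, on the other strand over 11.1% of the exon bases of Prc1, had 729 and 998 counts under IL-3 and 2640 and 2102 in its absence. Whether the counting used strand is not given in the sources used here, so reads of such pairs cannot be assigned with certainty, and 11 of the 40 genes have such an overlap. Ect2, the exchange factor that starts the cleavage furrow, had 40.5 and 27.6 CPM with IL-3 and 25 and 26.4 CPM without it, so that the second library with IL-3 was barely above those without it, and the groups overlapped with library totals alone. Its partner Racgap1 had 64.8 and 162 CPM with IL-3 and 117 and 89.3 CPM without it, which is the order held by 19 of the 40 genes. Kif23, the motor subunit beside Racgap1, ranged from 29.8 to 38.7 CPM and the ring scaffold Anln from 32.3 to 43.5 CPM, both limits being the libraries with IL-3.

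The 4 genes of anaphase onset followed a single order, low in Abl1ko/IL3+ 1, then Abl1ko/IL3- 2, Abl1ko/IL3- 1 and Abl1ko/IL3+ 2. Their summed level was 166 and 627 CPM with IL-3 and 333 and 255 CPM without it, and their median ratio between the duplicates with IL-3 was 3.73-fold. Cdc20, the activator of the anaphase-promoting complex, had 57.9 and 187 CPM with IL-3 and 79.4 and 63.4 CPM without it. Its log2 fold change was -0.78 (SE 0.61, adjusted p = 0.919 in edgeR) and 0.30 without Abl1ko/IL3+ 2, the high library. Ube2c, the ubiquitin-conjugating enzyme of that complex, had 63.1 and 288 CPM with IL-3 and 157 and 120 CPM without it. Pttg1, which codes for securin, had 25.1 and 111 CPM with IL-3 and 69.9 and 50.4 CPM without it. Espl1, the separase that securin inhibits, had 19.9 and 42 CPM with IL-3 and 26.3 and 20.8 CPM without it. The ratio between duplicates with IL-3 was 4.53-fold for Ube2c, 4.33-fold for Pttg1 and 2.08-fold for Espl1, whose log2 fold change was -0.39 (SE 0.48, adjusted p = 0.955 in edgeR).

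Foxm1, the transcription factor of many G2 and M phase genes, differed between the duplicates with IL-3 in the opposite direction to 37 of the 40 genes. It had 1587 counts in Abl1ko/IL3+ 1 (95% Poisson interval 1510 to 1667), 204 in Abl1ko/IL3+ 2 (177 to 234), 94 in Abl1ko/IL3- 1 (76 to 115) and 163 in Abl1ko/IL3- 2 (139 to 190), intervals that cover counting error only. On the CPM scale these were 24.6 and 3.75 under IL-3 and 1.96 and 2.81 in its absence. Most of its counts lay in a single library, the one in which 26 of the 40 genes were lowest. The duplicates with IL-3 differed 5.91-fold, the widest gap of the 40 genes. The log2 fold change was -2.57 (95% interval -5.08 to -0.062, unadjusted p = 0.0463 and adjusted p = 0.841 in edgeR) and -0.64 without Abl1ko/IL3+ 1. Foxm1 lies on chromosome 6 from 128362967 to 128376146 (GRCm38, plus strand), and 2.5% of its exon bases overlap genes of the same strand, among them Tex52, which had 0 to 7 counts. Per length, Foxm1 was also the lowest of the 40 genes, with a mean of 1.34 FPKM, a level scaled by gene length and depth. The top of that scale was held by Ccnb2 at 69.9 FPKM, Ube2c at 51.6 FPKM, Cdc20 at 44.4 FPKM, Top2a at 44 FPKM and Birc5 at 40.6 FPKM, and next above Foxm1 came Cenpf at 2.18 FPKM and Cdc25c at 2.63 FPKM. Top2a, the topoisomerase that untangles chromosomes, had 333 and 600 CPM with IL-3 and 447 and 437 CPM without it. Both libraries without IL-3 were almost equal and sat between the others, and its log2 fold change was -0.077 (SE 0.41, adjusted p = 0.994 in edgeR).

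For the 23 genes without a fold change given above, fitted log2 changes ran from -0.81 to 0.23 and adjusted p-values from 0.86 to 0.999 in edgeR. The direction of the list as a whole turned on the libraries with IL-3. Without Abl1ko/IL3+ 1, 35 of 40 genes were lower in Abl1ko/IL3-, and the median log2 fold change was -0.64, beside 0.062 for all genes tested. Without Abl1ko/IL3+ 2, 30 of 40 were higher, with a median of 0.36, beside 0.028 for all genes tested. In neither fit did a mitosis gene pass the adjusted threshold, and a group left with 1 library is assumed there to vary like the other.

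Other genes of mitosis were read in 5 lists: condensin and cohesin, the anaphase-promoting complex, and other genes of the kinetochore, the spindle and midbody, and mitotic entry. All 121 passed the filter on low counts, and 0 passed the adjusted threshold in edgeR or in DESeq2. At an unadjusted p under 0.05 there was 1 lower and 0 higher in edgeR (likewise 1 and 0 in DESeq2). Among all genes, 3.36% were lower and 2.56% higher in this way in edgeR. In DESeq2, 1369 of all 16535 genes were under this threshold, 796 of them lower. The median log2 fold change of the 121 genes was -0.097. Both libraries without IL-3 lay inside the span with IL-3 in 56 of 121, beside 28.0% of all genes. Higher in Abl1ko/IL3+ 2 than in Abl1ko/IL3+ 1 were 88 of 121, beside 7973 of all 16535, with a median ratio of 1.46-fold. The lists were not alike. Spindle and midbody genes (35) had a median ratio of 1.81-fold between those duplicates, kinetochore genes (36) 1.49-fold, the anaphase-promoting complex (17) 1.29-fold, mitotic entry genes (14) 1.23-fold, and condensin and cohesin genes (19) 0.924-fold.

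The gene under the unadjusted threshold was Pds5a, a cohesin regulator, with 3063 and 4451 counts under IL-3 and 973 and 1200 in its absence. Both libraries without IL-3 were lower, and its log2 fold change was -1.66 (SE 0.40, adjusted p = 0.727 in edgeR). Wapl, which releases cohesin, had the largest fitted rise of its list, 5692 and 2649 counts under IL-3 and 5053 and 5594 in its absence, with the second library with IL-3 the low one. Scaled by length and depth, these were 12.8 and 5.89 FPKM with IL-3 and 13.6 and 13.5 FPKM without it. On that scale both libraries without IL-3 were above both with it. Cdc25a, the third Cdc25 phosphatase, resembled Prc1 in that Abl1ko/IL3- 1 stood apart, with 176 counts against 1577 in its duplicate and 1751 and 2503 with IL-3. Bora, an activator of Aurora A, had 3500 and 3842 counts under IL-3 and 6071 and 4678 in its absence (log2 fold change 0.73, SE 0.38, adjusted p = 0.87 in edgeR). Hmmr, a spindle protein, had 3522 and 3569 counts under IL-3 and 2147 and 2545 in its absence (log2 fold change -0.44, SE 0.31, adjusted p = 0.901 in edgeR). The groups of Bora and of Hmmr did not overlap in counts. Of the kinetochore genes, Hjurp, the chaperone of Cenpa, had a log2 fold change of 0.53 (adjusted p = 0.874 in edgeR) and Cenpp, a subunit of the inner kinetochore, of -1.05 (adjusted p = 0.892 in edgeR). Of the anaphase-promoting complex, Anapc15 had 0.50 and Anapc7 -0.45, and Cks2, a subunit of Cdk1 complexes, had 0.52 (adjusted p = 0.971, 0.923 and 0.898 in edgeR). Mki67, the gene of the Ki-67 proliferation antigen, had 13868 and 27784 counts under IL-3 and 26738 and 22399 in its absence (log2 fold change 0.38, SE 0.52, adjusted p = 0.966 in edgeR), so that its low library was Abl1ko/IL3+ 1 as for most mitosis genes. Scaled by length and depth, it had 20.6 and 40.7 FPKM with IL-3 and 47.5 and 35.5 FPKM without it. Its highest library on that scale was Abl1ko/IL3- 1, unlike most mitosis genes.

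DNA replication genes, a list of the preceding phase of the cycle, were ordered in the same manner. Of 33 genes tested, 0 passed the adjusted threshold in edgeR or DESeq2, and their median log2 fold change was -0.11. At an unadjusted p under 0.05 there were 0 in edgeR (5.91% of all genes) and 1 in DESeq2 (1369 of all 16535 genes). Abl1ko/IL3+ 2 was the highest library in 30 of 33 (28.3% of all genes), and both libraries without IL-3 lay inside the span with IL-3 in 25 of 33 (28.0% of all genes). The summed level of the 33 genes was 2057 and 4855 CPM with IL-3 and 3627 and 2656 CPM without it. Between the duplicates with IL-3, the median ratio was 2.5-fold, against 1.93-fold for the mitosis genes.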

How the data were processed

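The authors sequenced total RNA depleted of ribosomal RNA. Per the study's methods, reads were aligned to GRCm38 and counted per gene with Rsubread and featureCounts. The submitters' processing notes name STAR, Cuffdiff and mm10 without a role. The deposited table holds raw counts and FPKM values (counts scaled by gene length and depth) for 4 libraries, and 0 per-sample columns were left unused. Versions and the strand setting are not given in the sources used here. Groups came from the labels. All pairs of libraries differed by more than counting noise, so each was kept as a sample.

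Counts were filtered (filterByExpr), TMM-normalized and tested with edgeR 4.0.16 in R 4.3.3 (quasi-likelihood F test, two-sided, Benjamini-Hochberg over 16535 genes, threshold 0.05). FPKM served only for levels between genes, for alternatives and for the scaled levels of Wapl and Mki67. Marker and other counts of the whole series are raw. The 40 genes and all lists were chosen with earlier results of these data known, so no list was tested. Fold changes are given for 10 core regulators, the 5 largest fitted rises and the 5 largest falls, and in each other list the largest rise and fall, and Mki67. Alternatives were DESeq2 1.42.0, limma 3.58.1 on log2(FPKM + 1) and log2(FPKM + 0.1), library size only, other filters, the replicate block and leaving out each library. Depth was 48953174 to 60382588 counts per library. The fit was tested on simulated data with a spread estimated from these libraries (16535 genes, 200 changed, without against with IL-3). That spread was set alike in both groups and genes were drawn independently, whereas here the duplicates with IL-3 differed more. Changes smaller than 4-fold were not simulated. Of the genes altered 4-fold, 32 of 200 were found by edgeR beside 0 false ones, and of those altered 64-fold, 181 beside 9. DESeq2 found 72 beside 33 false ones and 181 beside 42.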

Additional observations from a re-analysis of the deposited data

How the results depend on the processing

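No mitosis gene passed the adjusted threshold under any alternative run, and none of the 121 other mitosis genes did. Over all genes, DESeq2 called 271 where edgeR called 0, and leaving out a library gave 0 to 15 calls, the 15 without Abl1ko/IL3- replicate 1. The median log2 fold change of the mitosis genes, -0.22, ran from -0.64 to 0.36 on leaving out a library and from -0.22 to -0.086 under the other alternatives. It was 0.36 without Abl1ko/IL3+ replicate 2. Of 17 genes with a fold change given, 9 kept their direction throughout. With no library left out, Cdk1 turned to 0.077 (replicate block), 0.086 (limma, FPKM + 1) and 0.095 (limma, FPKM + 0.1), and Top2a to 0.0027 and 0.0033 in the same limma fits. Leaving out a library turned 8: Aurka (-0.66 to 0.54), Aurkb (-0.48 to 0.80), Birc5 (-0.28 to 1.98), Cdc20 (-1.37 to 0.30), Cdc25b (-1.32 to 0.0056), Cdk1 (-0.64 to 0.84), Espl1 (-0.82 to 0.24) and Top2a (-0.42 to 0.41). The cause was not tested. Groups did not overlap in 9 genes after TMM scaling, 11 by library totals and 12 by FPKM. The share over all genes was counted only after TMM scaling (17.9% lower and 19.4% higher). The counts by library totals and by FPKM thus have no background beside them.

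The labels number the replicates in each group without saying whether equal numbers are pairs, so the numbers were not read as pairs. Deviations of same-numbered libraries correlated at -0.211. With 2 libraries per group this rests on a single difference in each group and cannot decide on pairing. With the replicate block, 0 mitosis genes passed the adjusted and 0 the unadjusted threshold (548 genes of all at an unadjusted p under 0.05), and the median log2 fold change was -0.12. With the pairs crossed, chosen after seeing the data, 0 mitosis genes passed the adjusted and 2 the unadjusted threshold (1136 genes of all).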
